A study of Mus musculus with 4 samples.

Results

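The 10 genes described here encode enzymes that make serine, carry its one-carbon unit through folate, transfer the amino group of branched-chain amino acids, or make asparagine. They were found by matching the Ensembl gene IDs of the deposited count table to the symbols Phgdh, Psat1, Psph, Shmt1, Shmt2, Mthfd1, Mthfd2, Bcat1, Bcat2 and Asns. All 10 had a row among 55416 gene IDs, and all 10 passed the count filter that left 16566 genes for testing. The genes were chosen with earlier results of the same genotype comparison known. Their differences between genotypes are therefore given as a description.

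The libraries came from myeloid-derived suppressor cells (MDSCs), immature myeloid cells of neutrophil and monocyte type that accumulate with tumors and hold back T cells. Cells were sorted by flow cytometry from ascites of mice 14 days after injection of the T lymphoma line EL4, and poly(A) RNA was sequenced. There were 2 libraries from wild-type (WT) mice and 2 from mice without Sphk2 (Sphk2 KO), the gene of sphingosine kinase 2, and all mice carried EL4 cells. Nothing in the sources used here gives the strain, age or sex of the mice, the design of the knockout allele or the surface markers of the sort. The labels also do not say whether a library is 1 mouse or a pool, so any p-value measures only the spread between these samples, which may be technical.

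Serine is made from a glycolytic intermediate, 3-phosphoglycerate, by the successive enzymes Phgdh, Psat1 and Psph. Serine hydroxymethyltransferase moves a carbon of serine to tetrahydrofolate, in the cytosol by Shmt1 and mainly in the mitochondrion by Shmt2, and Mthfd1 and Mthfd2 interconvert the folate forms that feed purine and thymidylate synthesis. Bcat1 in the cytosol and Bcat2 in the mitochondrion transfer the amino group of leucine, isoleucine and valine to 2-oxoglutarate. Asns makes asparagine from aspartate and glutamine and is a textbook target of the transcription factor ATF4. These pathways are best known from dividing cells.

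The libraries held between 14087613 and 24685576 counts. Levels are CPM (counts divided by library size) on library sizes scaled by TMM, edgeR's trimmed mean method, with factors of 1.14 in WT replicate 1 and 0.912 in Sphk2 KO replicate 2. Sphk2 itself had 1033 and 743 counts in WT against 57 and 100 in Sphk2 KO. Its exons overlap those of Rpl18 and Dbp on the opposite strand, with 7386 and 173 counts over all libraries. Part of the Sphk2 counts could belong to those genes if strand was not used. The myeloid markers Itgam (181.2 to 258.4 CPM), Csf3r (5330 to 9394 CPM) and S100a8 (3957 to 9343 CPM) were present in all libraries. Over all genes, 18 of 16566 (0.109%) passed an adjusted p of 0.05 with edgeR.

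Phgdh, Psat1, Shmt2, Mthfd1, Bcat1, Bcat2 and Asns had lower levels in both Sphk2 KO libraries than in both WT libraries, while the groups overlapped for Psph, Shmt1 and Mthfd2. These are 7 of 10 genes, a separation seen in that direction in 22.7% of all tested genes. The median log2 fold change was -0.95 over the 10 genes and -0.00 over all tested genes, 9 of 10 were below 0 against 50.1% of all genes, and 5 of 10 were at or below -1 against 3.77%. None of the 10 passed the edgeR threshold (adjusted p from 0.0858 for Bcat1 to 0.926 for Shmt1), where 0.0664% of all tested genes passed with lower values in Sphk2 KO. At an unadjusted p under 0.05 there were 6 of 10, all with lower values in Sphk2 KO, against 7.47% of all genes. DESeq2 passed 3 of them, Bcat1, Phgdh and Psat1, against 0.227% of genes with lower values, and limma-voom passed 0. With the stricter filter on low counts it was also 0, where 0.0723% of genes passed with lower values, and without any filter 5 (1.58%). When WT replicate 1 was left out, 0 of the 10 passed (0.16% of all genes), and when WT replicate 2 was left out, 5 (3.34%). In the fit that omitted Sphk2 KO replicate 1 there were 5 (2.92%), and in the fit that omitted Sphk2 KO replicate 2 only Bcat1 passed (0.184%). The 5 were the same each time, namely Phgdh, Psat1, Shmt2, Bcat1 and Bcat2. Because of how the genes were chosen, nothing is read from these counts.

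**Figure D1:**
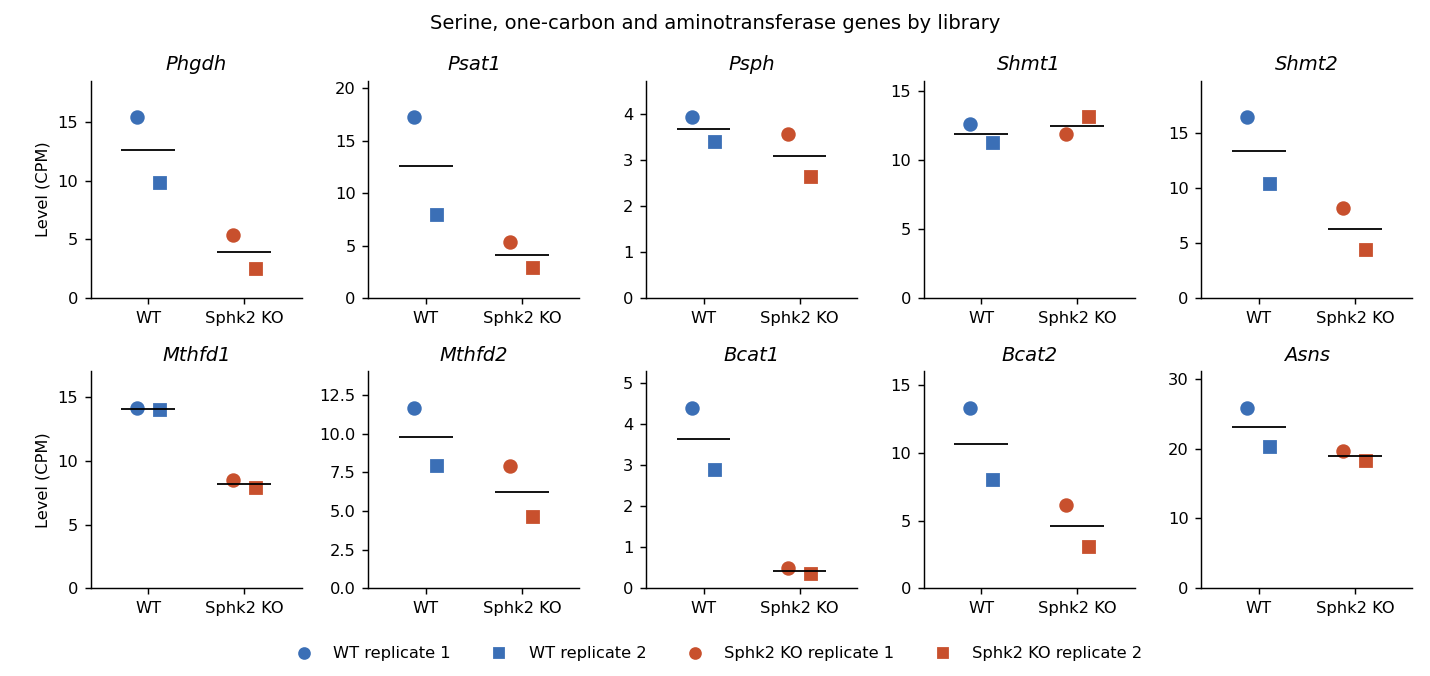
Level of each of the 10 genes in CPM (vertical axis, from 0, scaled per gene) in each WT (blue) and Sphk2 KO (red) library, with circles for replicate 1, squares for replicate 2 and a bar at the group mean. WT replicate 1 is highest and Sphk2 KO replicate 2 lowest in 9 of the 10 genes, and Shmt1 is level across the groups.

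The first enzyme of serine synthesis was low in the Sphk2 KO libraries. Phgdh (ENSMUSG00000053398, chromosome 3), the dehydrogenase that commits 3-phosphoglycerate to serine, had 15.4 and 9.76 CPM in WT against 5.35 and 2.49 in Sphk2 KO. The groups did not overlap, and the means were 12.6 ± 3.99 and 3.92 ± 2.02 CPM (mean ± SD, n = 2 each), a ratio of 3.21. Its log2 fold change, -1.72 (standard error, SE, 0.397), lay between -2.34 and -1.23 when each library was left out in turn. Of the 75-base sequences of its longest annotated transcript, 47.4% also occur in 13 other genes, predicted models without a known product, so reads of Phgdh may have been lost or split in the counting. Those 13 genes held 1, 1, 1 and 2 counts in the libraries, against 290, 135, 75 and 56 for Phgdh.

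Psat1 (ENSMUSG00000024640, chromosome 19), the aminotransferase of the next step, had a like pattern. It had 17.3 and 7.88 CPM in WT against 5.35 and 2.89 in Sphk2 KO, again without overlap. WT replicate 1 stood well above the other 3 libraries, and the SD in WT was 6.63 CPM beside a mean of 12.6 CPM. The log2 fold change of -1.64 (SE 0.433) was -0.97 when WT replicate 1 was left out.

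Psph (ENSMUSG00000029446, chromosome 5), the phosphatase that releases free serine, had the smallest difference of the 3 serine synthesis genes. Whether the genes differ from each other was not tested. Psph had 3.93 and 3.40 CPM in WT against 3.57 and 2.62 in Sphk2 KO, and the groups overlapped. Its log2 fold change, -0.26 (SE 0.328), lay between -0.49 and -0.03 when each library was left out. Its exons overlap those of Cct6a, a chaperonin gene on the opposite strand with 15.6 to 35.4 CPM, and no source used here gives the strand setting of the counting. The summed level of the 3 serine synthesis genes was 36.6 and 21.0 CPM in WT against 14.3 and 8.01 in Sphk2 KO.

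Among the folate enzymes, the mitochondrial hydroxymethyltransferase was lower in both Sphk2 KO libraries and the cytosolic one was not. Shmt2 (ENSMUSG00000025403, chromosome 10) had 16.4 and 10.3 CPM in WT against 8.13 and 4.36 in Sphk2 KO. Its groups did not overlap, with a log2 fold change of -1.12 (SE 0.356), and -1.62 to -0.71 over the fits that left out a library. Shmt1 (ENSMUSG00000020534, chromosome 11) had 12.6 and 11.2 CPM in WT against 11.8 and 13.1 in Sphk2 KO. Its groups overlapped throughout, and the log2 fold change of 0.07 (SE 0.213) turned to -0.11 with library size alone as the scaling, a setting that moved the median of all tested genes to -0.17. Shmt1 shares exonic sequence with Smcr8 on the opposite strand, so part of the Shmt1 counts could belong to Smcr8 if strand was not used. Smcr8 had 112 and 114 CPM in WT against 118 and 133 in Sphk2 KO. Its part in the Shmt1 counts was not tested.

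Mthfd1 (ENSMUSG00000021048, chromosome 12), the cytosolic enzyme that carries 3 folate activities, had the tightest replicates. It had 14.2 and 14.0 CPM in WT against 8.49 and 7.87 in Sphk2 KO, and the groups did not overlap. The ratio of the means was 1.72 (log2 fold change -0.79, SE 0.216), and the value stayed between -0.85 and -0.72 when each library was left out. Mthfd2 (ENSMUSG00000005667, chromosome 6), its mitochondrial relative, had 11.7 and 7.88 CPM in WT against 7.92 and 4.58 in Sphk2 KO. WT replicate 2 and Sphk2 KO replicate 1 were nearly level, so the groups overlapped (log2 fold change -0.67, SE 0.337).

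Both branched-chain aminotransferases lay lower in the Sphk2 KO libraries. Bcat1 (ENSMUSG00000030268, chromosome 6), the cytosolic form, had the largest difference of the 10. It had 83 and 40 counts in WT against 7 and 8 in Sphk2 KO, or 4.41 and 2.89 CPM against 0.499 and 0.356 CPM. The ratio of the means was 8.53, and the log2 fold change of -3.12 (SE 0.455) kept within -3.37 and -2.79 in the fits without 1 library. Bcat1 was a weakly expressed gene that passed the count filter through its WT libraries alone.

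Bcat2 (ENSMUSG00000030826, chromosome 7), the mitochondrial form, had 13.3 and 8.02 CPM in WT against 6.14 and 3.07 in Sphk2 KO, without overlap. The log2 fold change was -1.24 (SE 0.391), and ranged from -1.81 to -0.80 when each library was left out. Bcat2 is the only one of the 10 genes on the chromosome of the targeted gene, and in the GRCm38 annotation it lies 6 tested genes away from Sphk2. Of those 6 genes, 3 had higher and 1 had lower values in both Sphk2 KO libraries, and Fut2, a fucosyltransferase gene, passed the test with a log2 fold change of 3.22 (SE 0.265, edgeR adjusted p = 0.00232). For Bcat2, the loss of sphingosine kinase 2 and linkage to the targeted locus cannot be told apart.

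Asns (ENSMUSG00000029752, chromosome 6), the asparagine synthetase, had the highest level per length of the 10 and a small difference. It had 25.9 and 20.2 CPM in WT against 19.6 and 18.2 in Sphk2 KO. The lowest WT and the highest Sphk2 KO library were 0.61 CPM apart. The log2 fold change was -0.29 (SE 0.198), and -0.11 without WT replicate 1.

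**Figure D2:**
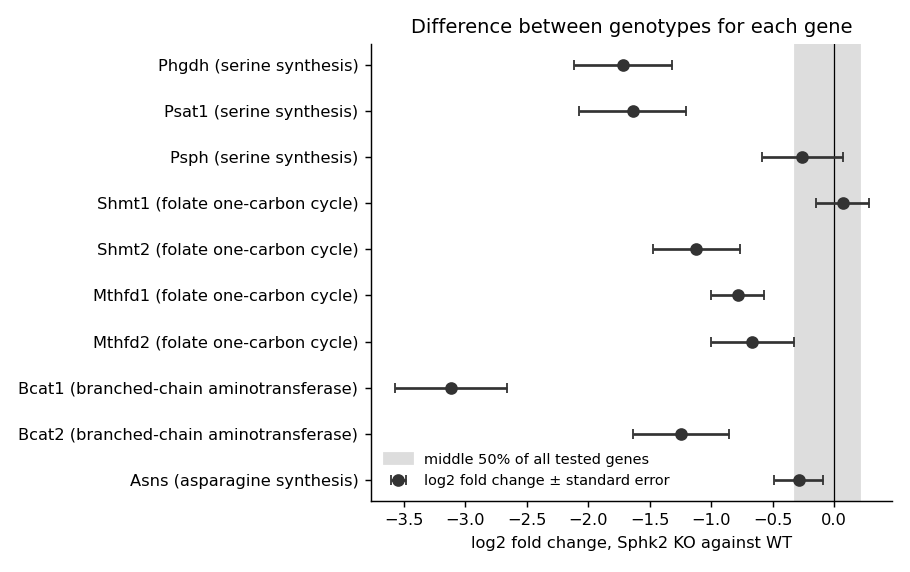
Log2 fold change of each gene in Sphk2 KO against WT (horizontal axis) with its standard error, from the edgeR fit on 4 libraries, and the interquartile range of all tested genes as a grey band. Bcat1 lies farthest below 0 at -3.12, Phgdh, Psat1, Bcat2 and Shmt2 lie between -1.72 and -1.12, and Shmt1 is at 0.07.

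Per kilobase of annotated exon, the order of the genes differed between the genotypes. In WT, Asns was highest at a mean of 8.43 CPM per kilobase, followed by Phgdh (5.06), Shmt2 (4.30), Mthfd1 (3.17), Shmt1 (3.06), Psat1 (2.95), Mthfd2 (2.80), Bcat2 (2.74), Psph (0.846) and Bcat1 (0.391). In WT the values of Asns and Phgdh, of Shmt2 and Mthfd1, of Bcat2 and Psph and of Psph and Bcat1 did not overlap. The values of the other neighbors in this order overlapped between libraries, although Phgdh was above Shmt2 within each WT library. In Sphk2 KO, Asns was again highest at 6.91 and Shmt1 came next at 3.21, with Phgdh at 1.58 and Psat1 at 0.969. Lengths were taken from GENCODE M21, an annotation of GRCm38, whereas the counts were made on GRCm39. Reads lost from Phgdh to like sequences, or gained by Psph and Shmt1 from the opposite strand, could also change the order.

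Within each library the mitochondrial and cytosolic enzymes can be set against each other, which removes the scaling of the library. The Shmt2 to Shmt1 ratio of CPM per kilobase was 1.63 and 1.15 in WT and 0.858 and 0.416 in Sphk2 KO. By these counts Shmt2 was the higher of the pair in both WT libraries and the lower in both Sphk2 KO libraries. Part of the Shmt1 counts could belong to Smcr8 if strand was not used, which would change these ratios. The Mthfd2 to Mthfd1 ratio was 1.05 and 0.716 in WT and 1.19 and 0.741 in Sphk2 KO, with the groups overlapping. For Bcat2 to Bcat1 it was 7.23 and 6.63 in WT and 29.4 and 20.6 in Sphk2 KO, the last 2 resting on 7 and 8 Bcat1 counts.

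**Figure D3:**
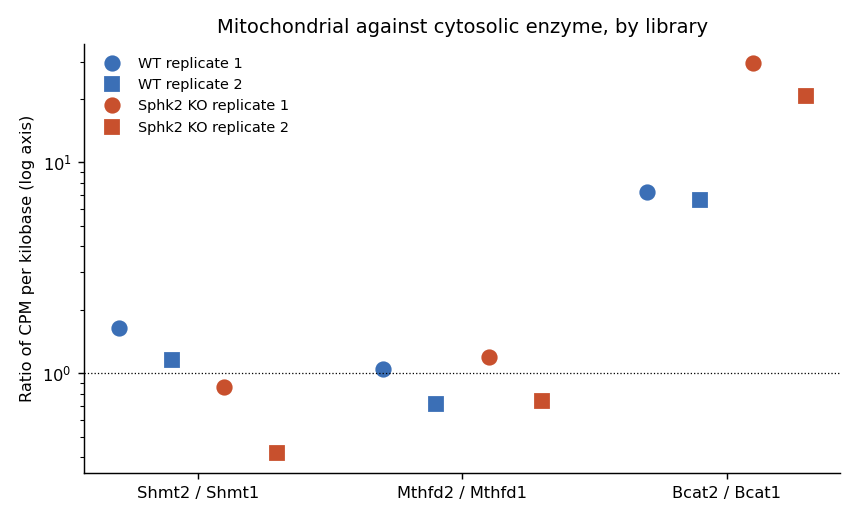
Ratio of the mitochondrial to the cytosolic enzyme of each pair, in CPM per kilobase of exon on a log axis, for each of the 4 libraries. Shmt2 over Shmt1 is above 1 in WT and below 1 in Sphk2 KO, Mthfd2 over Mthfd1 overlaps between groups, and Bcat2 over Bcat1 is between 20.6 and 29.4 in Sphk2 KO against 6.63 and 7.23 in WT.

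The sequence before the start of each gene was read from RefSeq windows (GRCm38.p6), in which all 10 genes had an entry, and the 250 bases before the start were searched on both strands. The motif TGATGNAA, the core of the C/EBP-ATF response element that ATF4 dimers bind, was found in the window of Asns alone, 23 bases before its RefSeq start. The GENCODE M21 annotation has an Asns transcript that starts farther upstream, so there the site lies within annotated exon bases. It occurs in 3.45% of all 32851 windows of this length. The E-box CACGTG, bound by Myc and its relatives, was in none of the 13 windows of the 10 genes and in 6.02% of all windows. A missing match says only that these letters are not in this window. The windows of Psph and Mthfd1, both windows of Bcat2 and the inner window of Bcat1 lie wholly within exons annotated in GENCODE M21. The Asns site is shown with the motif in capitals, because it is the only match among the 10. The windows of Phgdh, Psat1 and Bcat1, which DESeq2 passed, follow in lower case. Each is that of the outermost RefSeq start, limited to the bases outside annotated exons and holding neither motif. In GENCODE M21 the gene Psat1 also starts farther upstream, so its printed window lies within the gene but outside its exons.
Asns site (chr6:7693214-7693243, minus strand): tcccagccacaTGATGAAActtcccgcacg
Phgdh (chr3:98339991-98340219, minus strand): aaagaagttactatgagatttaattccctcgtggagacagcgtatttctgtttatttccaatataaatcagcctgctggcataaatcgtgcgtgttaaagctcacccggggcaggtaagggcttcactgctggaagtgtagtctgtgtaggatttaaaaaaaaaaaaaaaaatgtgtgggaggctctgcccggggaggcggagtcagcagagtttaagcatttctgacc
Psat1 (chr19:15925060-15925309, minus strand): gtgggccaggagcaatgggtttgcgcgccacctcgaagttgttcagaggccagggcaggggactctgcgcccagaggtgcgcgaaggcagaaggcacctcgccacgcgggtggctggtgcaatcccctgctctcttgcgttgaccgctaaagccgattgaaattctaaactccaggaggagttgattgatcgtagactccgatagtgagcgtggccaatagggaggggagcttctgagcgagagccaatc
Bcat1 (chr6:145076185-145076407, minus strand): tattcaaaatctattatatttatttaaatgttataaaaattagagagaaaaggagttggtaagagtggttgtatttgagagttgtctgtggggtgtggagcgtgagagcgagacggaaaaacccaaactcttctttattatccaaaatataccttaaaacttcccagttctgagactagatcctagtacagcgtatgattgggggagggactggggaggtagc
Of the whole 250-base windows at these starts, 61.6% of the bases are G or C in Asns, 59.6% in Psat1, 44.0% in Phgdh and 37.6% in Bcat1. The median over all windows is 52.4%. Psat1 and Bcat1 each have a further window at an inner start, with 65.6% in Psat1 and 56.4% in Bcat1.

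Other genes of these pathways were taken from 9 lists chosen by function, also with earlier results known, with 134 genes in the table and 121 tested. None was called by edgeR (0.109% of all genes), and DESeq2 also called 0. At an unadjusted p under 0.05 there were 29 of 121 with lower and 2 with higher values in Sphk2 KO, against 7.47% and 3.06% of all tested genes. The 2, named after their values were seen, were Slc43a1 (log2 fold change 1.21, SE 0.435) and Mcee (0.83, SE 0.286). Their mean levels, 2.94 and 4.48 CPM, were below the 5 CPM set for naming genes by fold change. Both Sphk2 KO libraries lay below both WT libraries in 58 of the 121 and above them in 11, against 22.7% and 20.4% of all tested genes. The median log2 fold change was -0.32, and 90 of the 121 had negative values, against 50.1% of all tested genes. The counts of each list below stand beside the same shares, and some lie near them. Small positive values depend on the scaling: with library size alone, Mthfs, Mat2b, Glul, Cars and Atf4, all above 0 in what follows, lay between -0.14 and -0.0063.

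Around serine, 9 of 12 genes were tested and 5 lay lower without overlap. They include Sfxn1, a mitochondrial serine carrier, at 17.2 and 11.3 CPM in WT against 9.35 and 6.63 in Sphk2 KO (a log2 fold change of -0.85, SE 0.288), the lowest value of this list among genes of at least 5 CPM. Pkm, the pyruvate kinase gene downstream of 3-phosphoglycerate, had the highest CPM of this list. Its mean was 994 ± 173 CPM in WT against 1154 ± 60.3 in Sphk2 KO (± SD, n = 2 each), and the groups overlapped.

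Of the other folate and purine enzymes, 14 of 16 tested genes had negative values, 8 of them without overlap, with a median of -0.33. Atic, which uses a formyl folate in the last steps of purine synthesis, had 20.1 and 11.5 CPM in WT against 9.20 and 5.43 in Sphk2 KO (a log2 fold change of -1.13, SE 0.348). Mthfs, which returns formyl folate to the cycle, gave 0.03 (SE 0.235). In the glycine cleavage system, 3 of 4 genes were tested and 1 lay lower without overlap. Dld, the dehydrogenase it shares with other complexes, gave -0.10 (SE 0.169).

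In the methionine cycle, 9 of 10 tested genes lay lower without overlap, with a median of -0.41. Ahcy, which hydrolyzes S-adenosylhomocysteine, had 11.2 and 7.88 CPM in WT against 5.56 and 4.14 in Sphk2 KO (a log2 fold change of -0.99, SE 0.299). Mat2a, which makes S-adenosylmethionine, gave -0.20 (SE 0.163) and its regulatory subunit Mat2b 0.14.

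For branched-chain amino acids, 3 of 7 transporter genes lay lower and 2 higher without overlap. Slc7a6 gave -0.78 (SE 0.240), Slc43a2, the highest in CPM, -0.30 (SE 0.170), and Slc25a44, the mitochondrial carrier of branched-chain amino acids, 0.40 (SE 0.185). In the breakdown pathway 16 of 23 genes had negative values, 8 lay lower and 3 higher without overlap, and the median was -0.42. Ivd, the isovaleryl-CoA dehydrogenase of leucine breakdown, gave -0.86 (SE 0.307). Hibch, an enzyme of valine breakdown, had higher values in both Sphk2 KO libraries, at 0.37 (SE 0.209).

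Around asparagine, 4 of 12 tested genes lay lower and 1 higher without overlap. Aldh18a1, which starts proline synthesis from glutamate, had 15.5 and 10.8 CPM in WT against 6.56 and 4.54 in Sphk2 KO (a log2 fold change of -1.26, SE 0.296). Glul, the glutamine synthetase gene, gave 0.16 (SE 0.152).

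The ATF4 branch was split, with 11 negative and 10 positive values among 21 tested genes and a median of -0.10. Without overlap, 5 lay lower and 5 higher in Sphk2 KO, near the shares of all tested genes (22.7% and 20.4%). Atf4 itself had 171 and 234 CPM in WT against 215 and 228 in Sphk2 KO (a log2 fold change of 0.13, SE 0.193). Ddit3, a stress-induced factor of this branch, had higher values in both Sphk2 KO libraries (0.46, SE 0.206), and Trib3 gave -0.59 (SE 0.382). Chac1 gave -0.17, Cebpb -0.10, and Slc7a11, the cystine transporter gene, -0.12 with replicates from 180 to 511 CPM in WT. Slc7a1, a cationic amino acid transporter gene, had means of 30.1 ± 9.16 CPM in WT against 15.2 ± 6.91 in Sphk2 KO (± SD, n = 2 each), without overlap. Stc2, a secreted glycoprotein gene picked after its values were seen, had only 44 and 12 counts in WT against 0 and 7 in Sphk2 KO. Myc had 27.7 and 16.7 CPM in WT against 17.0 and 8.99 in Sphk2 KO, with overlap (-0.79, SE 0.343).

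Of the 20 cytosolic aminoacyl-tRNA synthetase genes, which charge tRNAs for protein synthesis, 19 had negative values and 15 lay lower without overlap, with a median of -0.35. Iars, the isoleucine enzyme, had 30.5 and 19.7 CPM in WT against 13.5 and 10.0 in Sphk2 KO (a log2 fold change of -1.10, SE 0.265). Vars, the valine enzyme with the highest CPM, gave -0.76 (SE 0.255), and Cars, the cysteine enzyme, 0.04.

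**Figure D4:**
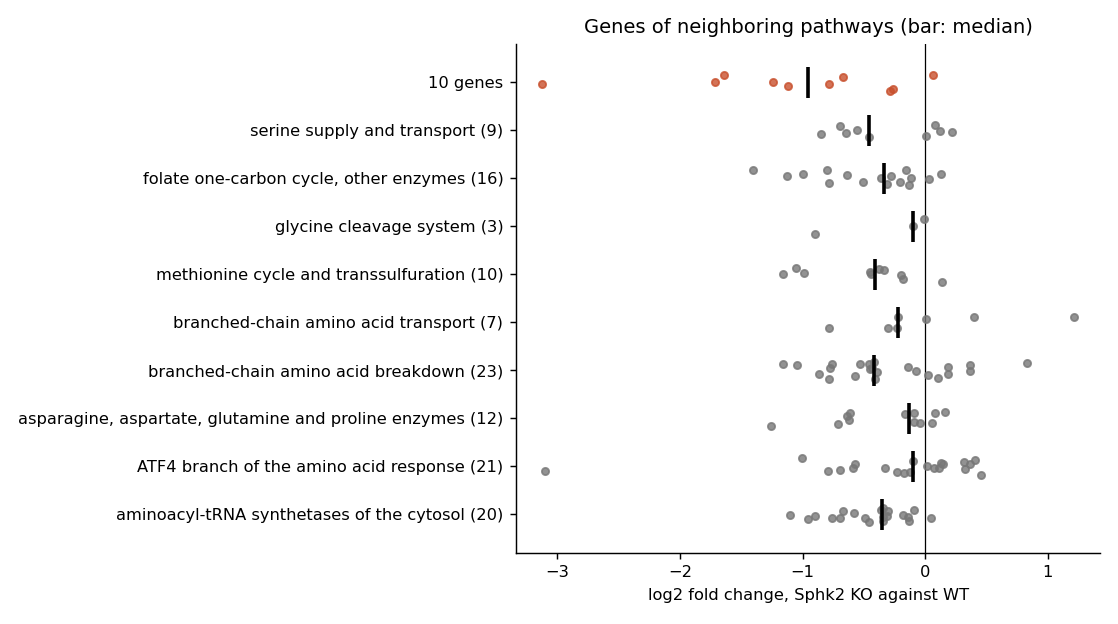
Log2 fold change in Sphk2 KO against WT (horizontal axis) of each of the 10 genes and of each tested gene in 9 lists of related genes, with the number tested in brackets and a bar at the median. The medians of the 9 lists lie between -0.46 for serine supply and -0.10 for the ATF4 branch, against -0.95 for the 10 genes.

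Markers of other cells and states also differed between the libraries. Of all tested genes, 22.7% lay lower and 20.4% higher in Sphk2 KO without overlap, and the marker counts stand beside these shares. The summed level of the 10 genes was 135 and 95.6 CPM in WT against 76.9 and 59.5 in Sphk2 KO. T cell markers, which EL4 cells could also carry, summed to 53.8 to 70.8 CPM in WT against 33.0 to 36.1 in Sphk2 KO, and 11 of 14 tested lay lower without overlap (median log2 fold change -1.18). Thy1, which was picked from that list after its values were seen, had 221 and 97 counts in WT against 35 and 25 in Sphk2 KO. B cell markers summed to 1358 to 1518 CPM in WT against 687 to 1356 in Sphk2 KO, and 9 of 10 lay lower without overlap. The exception, Ighm, made up a large part of these sums, with 745 and 578 CPM in WT against 785 and 318 in Sphk2 KO.

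Proliferation markers summed to 459 to 739 CPM in WT against 431 to 565 in Sphk2 KO, with overlap, and 1 of 14 lay lower without overlap. All 14 had negative values (median log2 fold change -0.50), against 50.1% of all tested genes. Their sum was highest in WT replicate 1 and lowest in Sphk2 KO replicate 2. The sums of the 10 genes and of the T cell, B cell and monocyte, macrophage and dendritic cell lists had the same extremes. Without Ighm, however, the B cell sum was highest in WT replicate 2. Monocyte, macrophage and dendritic cell markers summed to 1256 to 1434 CPM in WT against 966 to 1186 in Sphk2 KO. In that list 3 of 14 tested lay lower without overlap, near the share of all tested genes (22.7%). Mature neutrophil markers went the other way, from 24347 to 36279 CPM in WT and from 36974 to 46675 CPM in Sphk2 KO, with 10 of 15 higher without overlap. Neutrophil precursor markers overlapped (5265 to 7735 CPM in WT against 6316 to 9632 in Sphk2 KO), with 7 negative and 5 positive values among 12. The positive values were those of Camp (0.62), Lcn2 (0.41), Ngp (0.35), Ltf (0.33) and Cebpe (0.23). Without overlap, 2 of the 12, Camp and Lcn2, lay higher and 0 lower. Within that list the early granule genes Mpo, Elane, Ctsg and Prtn3 and the early marker Ms4a3, picked after their values were seen, had log2 fold changes from -1.51 to -0.87. Mpo had 92.8 and 24.7 CPM in WT against 31.5 and 10.5 in Sphk2 KO. All 5 early genes overlapped between groups, with WT replicate 1 highest and Sphk2 KO replicate 2 lowest. Erythroid markers were at 65.9 to 195 CPM in WT against 334 to 584 in Sphk2 KO, with 7 of 9 higher without overlap. No marker of these 7 lists was at 0 in all libraries. The part of these cells and states in the levels of the 10 genes was not tested, and fewer cells of a type and less RNA per cell cannot be told apart in bulk samples.

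**Figure D5:**
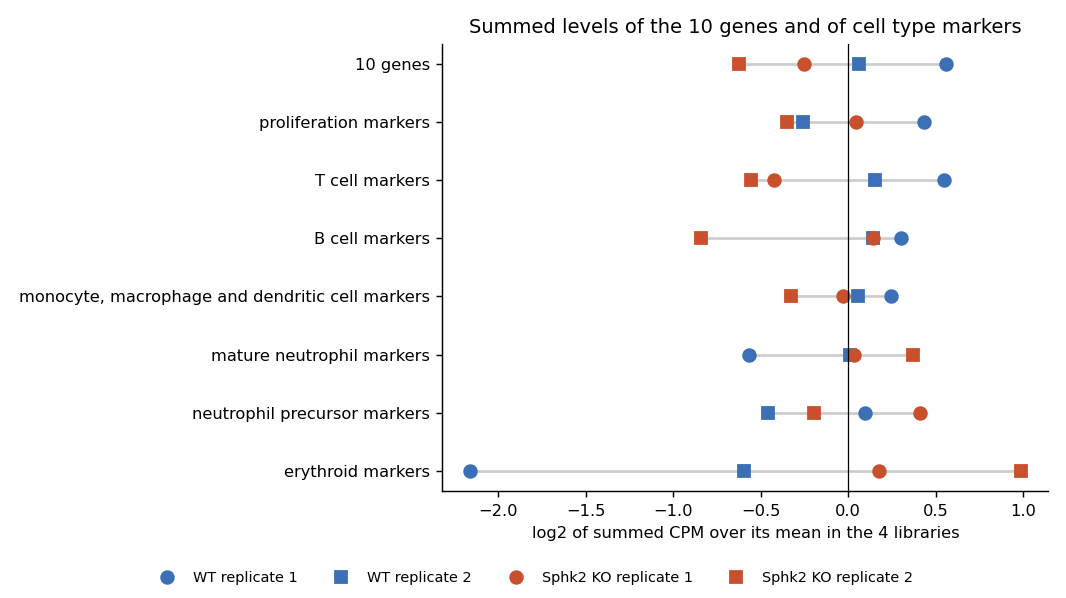
Summed CPM of the 10 genes and of 7 marker lists in each library, as log2 over the mean of the 4 libraries (horizontal axis). The B cell sum rests in large part on Ighm. WT replicate 1 is highest for the 10 genes and for proliferation, T cell, B cell and monocyte, macrophage and dendritic cell markers, and lowest for mature neutrophil and erythroid markers, and Sphk2 KO replicate 2 is at the opposite end of each.

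The spread across libraries was of the same form in many genes. WT replicate 1 was highest and Sphk2 KO replicate 2 lowest in 9 of the 10 genes and in 23.4% of all tested genes. Among 7837 other genes with a symbol and at least 10 CPM, the profiles nearest to the mean profile of the 10 were those of Ms4a4a, Usp10, Ptprs, Trim44 and Myo7a. Their Euclidean distances over the 4 centered log2 CPM values were 0.046, 0.0771, 0.0996, 0.106 and 0.119. The mean profile itself was 0.77 and 0.26 in WT and -0.24 and -0.79 in Sphk2 KO.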

How the data were processed

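The authors deposited raw read counts of Ensembl gene IDs for the 4 libraries in a single table. Per the labels' protocols, 250 ng of total RNA per library went through poly(A) selection and a directional paired-end kit. The submitters' processing notes name Trim Galore, STAR, featureCounts, DESeq2 and the build GRCm39. No source used here gives versions, annotation, strand setting or the treatment of multiply mapped reads.

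A symbol was found for 52083 of 55416 IDs, and the ID with most counts kept a shared symbol. Older symbols served for 20 genes. The fit was made with edgeR 4.0.16 (R 4.3.3; filterByExpr, TMM, quasi-likelihood F-test, genotype as sole term) on all 4 libraries, with Benjamini-Hochberg adjustment over all tested genes and a threshold of 0.05. The standard error is the size of the log2 fold change over the square root of F. Log2 CPM used a prior count of 2. The fit was tested on simulated data with 4-fold changes and no deviation shared between same-numbered libraries. The simulated spread between replicates was a set value, the same for all genes and not taken from these libraries. That test does not cover smaller differences or a larger spread. The genes and lists were chosen with earlier results of these data known.

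Alternatives were DESeq2 1.42.0, limma-voom (limma 3.58.1), RLE factors, library size alone, no filter on low counts, a filter of 1 CPM in 2 libraries with 100 counts over all, robust empirical Bayes, a replicate block and each library left out. Named besides the 10 genes were Sphk2, from each list the gene highest in CPM and those with the highest and lowest log2 fold change at 5 CPM or more, 6 chosen genes (Atf4, Ddit3, Trib3, Chac1, Myc, Slc7a11) and the 5 nearest profiles. The values of 3 genes of this rule are not reported here.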

Additional observations from a re-analysis of the deposited data

How the results depend on the processing

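The number of called genes, 18 in the edgeR fit, was 76 with DESeq2 and 615 without the count filter, and lay between 54 and 1061 when a library was left out. Of the 10 genes, 0 were called in that fit, 3 with DESeq2 (Bcat1, Phgdh, Psat1) and 5 without the count filter (those and Shmt2 and Bcat2). Leaving out a library gave 0 (WT replicate 1) to 5 (WT replicate 2, and Sphk2 KO replicate 1), with 1, Bcat1, without Sphk2 KO replicate 2. Of the other pathway genes 15 (14 lower, 1 higher) were called without the count filter, against 2.07% of all genes, and 0 (WT replicate 1 left out, 0.319% of all genes) to 22 (WT replicate 2 left out, 19 lower and 3 higher, 5.93%) without a library. With a replicate block, which the labels do not call a batch, 2637 genes were called, 7 of the 10 (the 5 and Mthfd1 and Mthfd2, against 10.2% of genes called with lower values) and 43 of the other pathway genes (36 lower, 7 higher, against 15.9% of all genes). Same-numbered libraries deviated together (correlation 0.44 across genes), and the labels give no reason for it. The median of the 10 was -0.95, and -1.36 to -0.72 when a library was left out.

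Of 120 values of the 10 genes under alternatives, 93 kept direction and side of the threshold, 26 passed it newly and 1 changed sign. With library size alone, where the median of all tested genes was -0.17, the sign turned for Shmt1 (-0.11), Mthfs (-0.14), Mat2b (-0.031), Glul (-0.0063), Cars (-0.13) and Atf4 (-0.027). Leaving out a library turned it for Mthfs (-0.20 to 0.28 over these fits), Cebpb (-0.29 to 0.072), Cars (-0.012 to 0.10), Atf4 (-0.094 to 0.39) and Slc7a11 (-0.70 to 0.83). The cause was not tested. A fit without a library leaves 1 library in a group, which is assumed to vary like the other group. The median SE over all tested genes was 0.28, which limits the size of a detectable difference.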
